A study of Rattus norvegicus with 46 samples.

Results

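Skin that had received the full radiation course was compared with skin of the same rats taken partway through it. The comparison used 6 of the 46 arrays of the study: 3 arrays of irradiated, vehicle-injected rats biopsied on day 1 and 3 arrays of the same 3 rats biopsied on day -4, paired by the rat number in the sample titles. All 23188 features of the array that are not controls were compared, of the 24834 in the deposited table. The rats were Sprague-Dawley. The irradiated groups received 40 Gy of 6 MeV electrons to the skin in 4 fractions of 10 Gy, given every other day over 8 days. Injections were given on days -7, -5, -3 and 0, the days of radiation or sham treatment, so that 2 treatment days preceded the day -4 biopsy and 4 preceded the day 1 biopsy. The vehicle was DMSO in both the irradiated and the unirradiated vehicle rats. The day 1 biopsy therefore differed from the day -4 biopsy in radiation dose, in the number of DMSO injections, in time and in the number of earlier biopsies, and within the irradiated vehicle rats these cannot be told apart. A second irradiated group of 3 rats was injected with RTA-408, a synthetic triterpenoid that activates the transcription factor NRF2, and 2 unirradiated rats received DMSO with sham treatment; both were biopsied on the same days. Baseline skin was taken on day -10 from 6 rats. Each sample was a 5 mm punch of abdominal skin, so the RNA came from all layers of the punch together.

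Rat skin holds an epidermis that renews from basal keratinocytes, hair follicles with their sebaceous glands, a dermis, fat and, beneath it, a sheet of skeletal muscle, the panniculus carnosus. Sebaceous glands make sebum, a mixture of wax esters, sterol esters and triglycerides, in cells that fill with lipid and burst, so the gland depends on steady cell renewal. Radiation of the skin is known to damage dividing cells of the epidermis and follicle and to shrink sebaceous glands. Mitochondria burn the products of sugar and fat breakdown in the tricarboxylic acid (TCA) cycle and pass the electrons to the respiratory chain complexes, whose proton gradient drives ATP synthase, and skeletal muscle is rich in all of these.

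Values are the deposited log2 values, and a difference is the day 1 value minus the day -4 value on that scale, as the mean of the 3 rats. Its standard error (SE) is that of the limma fit, with a spread estimated over all 46 arrays. It does not measure the spread of the changes of the 3 rats alone. The deposited values reached above 16, so the differences are not given as folds. A feature was called when the limma fit of all 46 arrays, with the rat as a block, gave a Benjamini-Hochberg adjusted p below 0.05, and "rose" and "fell" are used only of called features. Samples of the 3 rats are separate animals. Of 35 marker genes of skin cell types, 31 were measured and 25 lay above the median of the negative control features on all 6 arrays, among them those of fibroblasts, fat and muscle, while the T cell genes Cd3e and Cd3d and the neutrophil gene Csf3r lay above it on 0 arrays. S100a8 and S100a9, fixed as neutrophil markers beside Csf3r, lay above that median on all 6 arrays. Krt5 and Krt10 were not measured. The negative control medians were 6.17 to 6.49, and of the genes described the day -4 values of Pde7b and Ppargc1a and the day 1 values of Ces4a lay around them, so those levels are less certain. The medians of the tested features lay between 6.89 and 6.93 on the 6 arrays, and replicates of a day correlated at 0.977 to 0.990 over features.

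Some arrays stood apart before any comparison of days. The array of rat 1 on day -4 carried milk genes: casein Csn1s1 was at 18.2 and Lalba, the milk protein alpha-lactalbumin, at 14.0 there. The mean of 8 milk genes was 12.02 on that array and 4.26 to 4.80 on the other 5. The milk genes were picked after their values were seen, and their part in the results was not tested. The labelling and spike-in control features divided the arrays of the study into 3 sets, here called labelling sets. The sample labels name no batch, so these sets are inferred. The day -4 array of rat 1 and the day 1 array of rat 2 belonged to set II, and the other 4 arrays belonged to set I. Only rat 3 had both days in the same set. Muscle content differed between arrays as well: the mean of 26 skeletal muscle genes was 13.83, 10.74 and 15.25 on day -4 and 15.93, 15.95 and 16.41 on day 1 for rats 1, 2 and 3.

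Between day -4 and day 1, 132 of the 23188 features were called, 0.569% of those tested: 90 rose (0.388%) and 42 fell (0.181%). All 132 moved in the same direction in the 3 rats. The calls were made on these same arrays, so this and the lack of overlap between the 2 days follow in large part from the call. Of the called features 91 carried a gene symbol, 71 that rose and 20 that fell. Members of the mitochondrial lists described in the following made up 17 of the 71 named features that rose, and genes of lipid and fatty acid metabolism such as Elovl6, Elovl1, Acsm1 and Acsm3 were among the 20 that fell. At an unadjusted p below 0.05 there were 3300 features, 1683 higher (7.26%) and 1617 lower (6.97%). The median difference of all features was -0.04, and 16.8% of features were higher in all 3 rats and 21.1% lower.

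The calls rested on all 3 rats. Without rat 1 or without rat 2 a single call was left, a feature with no gene symbol that lay at or below the negative controls on both days, and without rat 3 there were 26, of which 19 rose and 7 fell. Among the genes named in the following, Stfa3, Fgfbp1, Hk2, Parvb, Mrpl21, Tuba4a, Elovl6 and Adtrp were also called without rat 3. Just inside the threshold lay Mrps18b, a mitochondrial ribosome protein, with a difference of 0.96 and an adjusted p of 0.0494 in limma. Just outside lay Ehd3 at 1.81 (adjusted p = 0.0511) and Gpc1 at 1.01 (adjusted p = 0.0521).

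**Figure D1:**
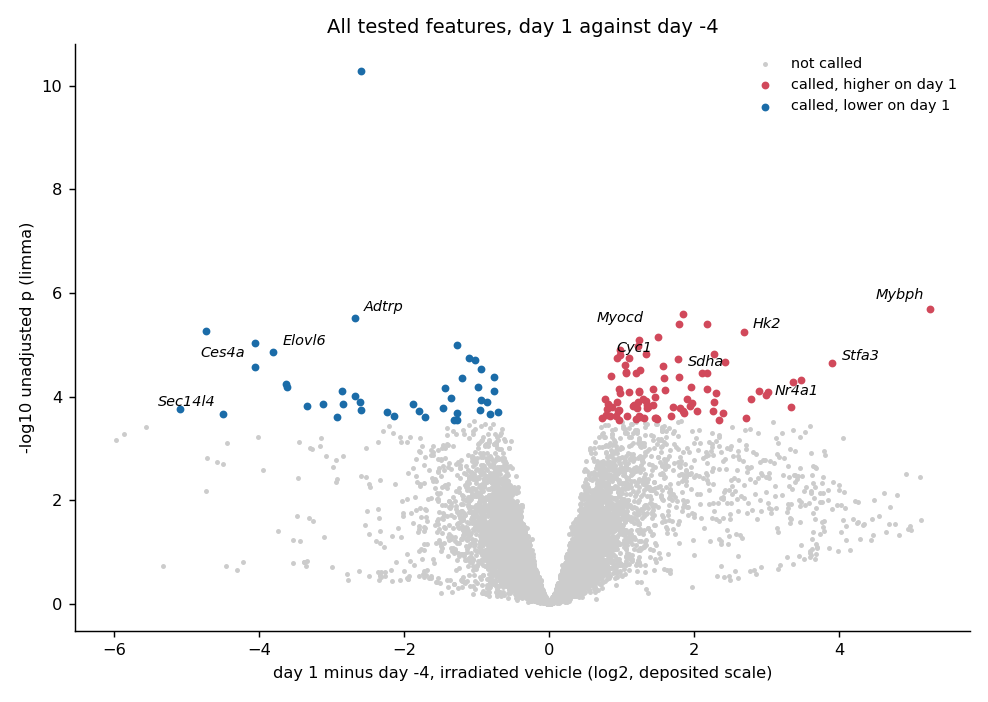
Difference between day 1 and day -4 in irradiated vehicle skin (x axis, log2 scale, mean of 3 rats) against the unadjusted p of limma (y axis, −log10) for the 23188 features, with called features coloured by direction. The 90 features that rose and the 42 that fell lie at the outer edges, with Mybph at 5.25 and Sec14l4 at -4.50.

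The genes of mitochondrial energy metabolism were higher on day 1. Of 26 measured genes of oxidative phosphorylation, 4 rose (Sdha, Cyc1, Uqcrc1 and Sdhb) and 0 fell, 24 were higher at an unadjusted p below 0.05, and the median difference was 1.16, beside -0.04 over all features. The mean of the list was 12.00, 11.81 and 12.43 on day -4 and 12.95, 13.09 and 13.56 on day 1, so that every day 1 array lay above every day -4 array. The list median was 0.94 in rat 1, 1.28 in rat 2 and 1.16 in rat 3. The skeletal muscle list was also higher on day 1 in all 3 rats, with list medians of 2.17, 5.71 and 1.07 in rats 1, 2 and 3. At baseline the single array with the lowest muscle mean, 6.48, also had the lowest oxidative phosphorylation mean, 12.08, against 12.65 to 13.36 on the other 5. Whether the changes of the 2 lists share a cause was not tested.

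Sdha, the flavoprotein subunit of succinate dehydrogenase, links the TCA cycle to the respiratory chain. Its values were 10.75, 10.21 and 11.62 on day -4 and 12.46, 12.28 and 13.22 on day 1 in rats 1, 2 and 3. The days did not overlap, and Sdha rose by 1.80 ± 0.36 (SE of the limma fit, limma adjusted p = 0.0256). Cyc1, the cytochrome c1 subunit of complex III, was at 10.12, 9.93 and 10.68 on day -4 and at 11.48, 11.38 and 12.59 on day 1. All 3 day 1 values again lay above the day -4 values, with a difference of 1.57 ± 0.31 (adjusted p = 0.0222). Sdhb, the iron-sulfur subunit beside Sdha, rose by 1.31 (adjusted p = 0.0479), and Uqcrc1, a core subunit of complex III, by 1.46 (adjusted p = 0.0379).

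Further mitochondrial groups were put together after their values were seen, so their counts are a description. They share genes with the oxidative phosphorylation list, among them Sdha, Sdhb and Cyc1, so their calls partly repeat those given above. Of 15 TCA cycle genes 5 rose, with a list median of 1.31 and list means of 11.85, 11.61 and 12.39 on day -4 against 12.89, 13.03 and 13.58 on day 1. Ogdh, a subunit of the oxoglutarate dehydrogenase complex, was at 13.20, 13.52 and 14.06 on day -4 and at 14.86, 14.80 and 15.12 on day 1 and rose by 1.33 ± 0.25 (adjusted p = 0.0193). Its partner Dlst rose by 1.30 and citrate synthase Cs, which opens the cycle, by 0.97. Among 40 genes of complex I 2 rose, among 9 of complex III 3, among 14 of complex IV 0 and among 14 of ATP synthase 3. The ATP synthase subunit Atp5po was at 10.13, 10.00 and 10.28 on day -4 and at 11.04, 11.38 and 11.68 on day 1, a rise of 1.23 ± 0.23 (adjusted p = 0.0183). The mitochondrial ribosome had 3 genes that rose of 66, with a median of 0.38, and protein import 1 of 21, with a median of 0.27. In all 180 mitochondrial genes of these lists 17 rose (9.44%, beside 0.388% of all features) and 0 fell, and 106 were higher at an unadjusted p below 0.05 (58.9%, beside 7.26%).

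Ppargc1a, the coactivator PGC-1alpha that drives the making of mitochondria, was at 6.21, 6.09 and 7.05 on day -4 and at 7.88, 7.73 and 8.85 on day 1. Each rat gained a similar amount, and the gene rose by 1.71 ± 0.39 (adjusted p = 0.0411). Mfn2, which fuses mitochondria, rose by 1.24, Slc25a3, the mitochondrial phosphate carrier, by 1.06, Timm23, a channel of protein import, by 1.19 and Txn2, the mitochondrial thioredoxin, by 1.16. The 79 measured genes of the cytosolic ribosome had 0 calls in either direction and a median of -0.24. Of 38 proteasome genes 1 rose, Psmd12 by 0.97, with a median of 0.26. Both groups were also put together after values were seen, so they are a description and not a separate control.

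The promoters of the named called genes were read for the letters of known motifs, since many mitochondrial genes carry a site of the factor NRF1. RefSeq promoters of the rat build GRCr8 were matched for 57 of the 71 named genes that rose and 17 of the 20 that fell, and 250 bases before each start were searched on both strands. The NRF1 core GCGCATGC was present in 6 of the 57 (10.5%: Art3, Atp5po, G3bp2, Mrps18b, Sdhb and Uqcrc1) and in 1 of the 17 (5.88%: Cep70), against 2.38% of 27457 promoters. The E-box CACGTG was present in 9 of the 57 (15.8%) and in 1 of the 17, against 5.79%, and the CCAAT box in 33.3% and 29.4%, against 34.3%. The sterol element TCACNCCAC was in 1 of the 57 and 0 of the 17 (0.976% of all), and the ERR element TCAAGGTCA was in 0 of either set (0.368% of all). These are counts of letters in a window, not of sites in use. The 4 mitochondrial promoters with the NRF1 core are shown 5′ to 3′ on the strand of the gene, as 100 bases each, with the core in capitals on whichever strand it lay; in Atp5po and Mrps18b 2 copies on opposite strands overlap.
Uqcrc1 (chr8:118468123-118468222, plus strand): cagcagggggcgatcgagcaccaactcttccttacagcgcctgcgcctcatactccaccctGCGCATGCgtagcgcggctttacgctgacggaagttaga
Sdhb (chr5:158547721-158547820, plus strand): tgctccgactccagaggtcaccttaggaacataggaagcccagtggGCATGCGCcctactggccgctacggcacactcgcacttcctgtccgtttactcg
Atp5po (chr11:44657488-44657587, minus strand): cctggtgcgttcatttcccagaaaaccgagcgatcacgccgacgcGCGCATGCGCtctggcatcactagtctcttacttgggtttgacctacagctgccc
Mrps18b (chr20:2842906-2843005, plus strand): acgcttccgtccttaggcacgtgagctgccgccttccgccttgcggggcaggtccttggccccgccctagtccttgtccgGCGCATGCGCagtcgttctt

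The skeletal muscle genes were higher on day 1 by a wide and uneven margin. Of 26 measured members 0 were called and 3 were higher at an unadjusted p below 0.05, with a median difference of 3.04, and the list median was 2.17 in rat 1, 5.71 in rat 2 and 1.07 in rat 3. Ckm, the muscle creatine kinase, was at 16.10, 11.65 and 17.58 on day -4 and at 18.31, 18.28 and 18.83 on day 1. Rat 2 on day -4 stood far below the rest, and the difference of 3.37 did not pass (adjusted p = 0.577). In these whole punches more cells of a type and more RNA per cell cannot be told apart. With the muscle list mean of each array as a covariate, a setting chosen after seeing the data, 73 features were called, 51 of them among the 132. The oxidative phosphorylation list then had 2 called genes and a median of 0.89 and the TCA list a median of 1.04. Sdha, Cyc1, Hk2 and Mybph stayed called, while Sdhb, Uqcrc1, Dlst, Ppargc1a and Nr4a1 did not.

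**Figure D2:**
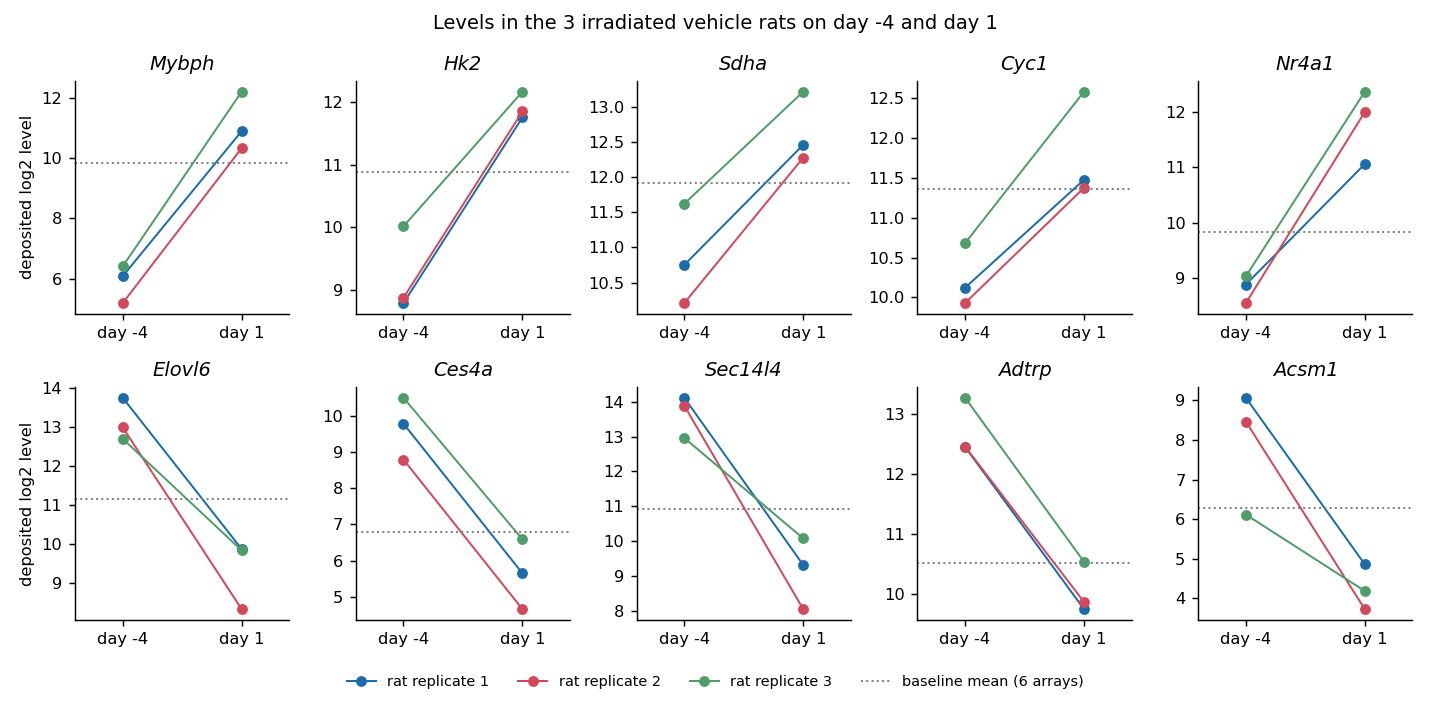
Log2 values of 5 genes that rose and 5 that fell (panels) on day -4 and day 1, each line 1 of the 3 irradiated vehicle rats and the dotted line the baseline mean of 6 rats. The 3 day 1 points of each gene lie on one side of the 3 day -4 points; Sdha, for example, lies between 10.21 and 11.62 on day -4 and between 12.28 and 13.22 on day 1.

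Several of the largest rises were in genes of muscle and glucose use. Mybph, a myosin-binding protein of muscle, was at 6.08, 5.19 and 6.41 on day -4, at or below the negative controls on every array, and at 10.89, 10.33 and 12.20 on day 1. The measured difference was 5.25 ± 0.87 (adjusted p = 0.0152), and against the level of the controls the rise was at least 4.75 on the log2 scale. Hk2, the hexokinase that traps glucose in muscle and other cells, was at 8.80, 8.88 and 10.02 on day -4 and at 11.75, 11.84 and 12.16 on day 1. It rose by 2.69 ± 0.47 (adjusted p = 0.0163). Pgk1, an enzyme of glycolysis, was at 13.45, 12.54 and 14.37 before and at 15.58, 15.72 and 16.24 after, a rise of 2.39 ± 0.55 (adjusted p = 0.0444). Both belong to a list of 26 hypoxia genes, of which only these were called and whose median was 0.35. Pkm and Ldha, later steps of glycolysis, differed by 2.18 and 1.87 and did not pass, nor did the lactate exporter Slc16a3 at 3.05 (adjusted p = 0.0851).

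Parvb, which ties integrins to actin, was at 7.50, 7.74 and 9.12 on day -4 and at 10.10, 10.55 and 10.97 on day 1 and rose by 2.42 ± 0.47 (adjusted p = 0.0203). Pde7b, a phosphodiesterase that breaks down cyclic AMP, rose by 2.18 with its values moving from 6.75, 5.90 and 6.39 to 8.61, 8.53 and 8.45 (adjusted p = 0.0152). Adsl, an enzyme of purine synthesis, rose by 2.30, Art3 by 2.72 (adjusted p = 0.0479) and Sbk2, a protein kinase, by at least 2.29 (adjusted p = 0.0282). Tuba4a, a tubulin, rose by 1.78, and Srm, which makes spermidine, by 1.24, beside Eif5a, the translation factor modified with spermidine, by 0.98. Of 12 smooth muscle genes 1 rose, Myocd, the coactivator of smooth muscle genes, by at least 0.27 (measured difference 1.50, adjusted p = 0.0179). The list median was 1.12, and it was 1.13 and 1.50 in the 2 unirradiated rats.

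Nr4a1, an orphan nuclear receptor switched on early by stress and growth signals, was at 8.88, 8.55 and 9.03 on day -4 and at 11.06, 12.00 and 12.37 on day 1, and rose by 2.99 ± 0.65 (adjusted p = 0.0353). It was the 1 called gene of 29 immediate early genes, whose median was -0.29. Stfa3, a cystatin-type protease inhibitor, was at 11.70, 11.53 and 11.65 on day -4 and at 17.18, 16.34 and 13.09 on day 1. Rat 3 moved least, and the rise was 3.91 ± 0.76 (adjusted p = 0.021). Fgfbp1, a carrier of fibroblast growth factors made by keratinocytes, was at 8.46, 8.65 and 8.10 before and at 12.30, 11.77 and 9.83 after and rose by 2.89 (adjusted p = 0.0325). Usp2, a deubiquitinase, rose by 1.86 (adjusted p = 0.0444), while the clock gene Per1 differed by -0.74 (adjusted p = 0.292).

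Genes of the sebaceous gland were lower on day 1. Of 20 measured members 1 fell, Elovl6, and 0 rose, 14 were lower at an unadjusted p below 0.05, and the median difference was -2.16 beside -0.04 over all features. The list mean was 12.55, 11.93 and 11.50 on day -4 and 10.05, 9.45 and 10.31 on day 1, with no overlap, and the list median was -2.94, -1.88 and -1.16 in rats 1, 2 and 3. Whether the punches held fewer sebaceous cells or less RNA per cell is subject to the same limit as for muscle.

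Elovl6, which lengthens palmitate to stearate, was at 13.75, 12.99 and 12.70 on day -4 and at 9.87, 8.32 and 9.83 on day 1, and fell by 3.81 on the log2 scale (SE 0.71, adjusted p = 0.0193). Sec14l4, a lipid-binding protein, was at 14.11, 13.89 and 12.96 before and at 9.32, 8.05 and 10.08 after and fell by 4.50 (SE 1.05, adjusted p = 0.0444). Ces4a, a carboxylesterase, was at 9.78, 8.79 and 10.49 on day -4 and at 5.64, 4.65 and 6.58 on day 1. Its difference of -4.06 ± 0.80 was called (adjusted p = 0.0225). Adtrp, which splits fatty acid esters of hydroxy fatty acids, was at 12.45, 12.46 and 13.27 before and at 9.74, 9.86 and 10.53 after, a fall of 2.68 on the log2 scale (SE 0.45, adjusted p = 0.0152). In each of these genes the 3 day 1 arrays lay below the 3 day -4 arrays.

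Of 7 fatty acid elongases, grouped after their values were seen, 2 fell, Elovl6 again and Elovl1, with a median of -1.87. Elovl1, which makes very long saturated chains, was at 18.23, 17.63 and 17.13 on day -4, averaged 15.79 ± 0.24 (SD, n = 3) on day 1 and fell by 1.87 on the log2 scale (adjusted p = 0.0404). Of 5 Acsm genes, acyl-CoA synthetases for medium chains, 2 fell: Acsm1 by at least 1.71 (measured values 9.07, 8.46 and 6.12 before and 4.86, 3.73 and 4.18 after, the latter at or below the controls, adjusted p = 0.03) and Acsm3, whose difference was -3.34 (adjusted p = 0.0411). Acsm3 also was lower on day 1 in both unirradiated rats, by 2.95 and 2.09 on the log2 scale. Pla2r1, a receptor of secreted phospholipases, fell by at least 2.66 (adjusted p = 0.0404) and Aadacl3, a lipase-like protein, by at least 1.65.

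Classical sebum genes did not pass despite large differences. Awat2, a wax synthase of the sebaceous gland, was at 16.28, 15.00 and 14.11 on day -4 and at 10.75, 9.45 and 11.67 on day 1, a difference of -4.50 that did not overlap but had an adjusted p of 0.0902. Awat1, a second wax synthase, differed by -3.95 (adjusted p = 0.0966), Dgat2l6, of the same family, by -4.44 (adjusted p = 0.0665) and Soat1, which makes sterol esters, by -3.45 (adjusted p = 0.0661). The lipid droplet gene Cidea differed by -3.15 (adjusted p = 0.0619) and Mc5r, the melanocortin receptor of sebocytes, by -1.87 (adjusted p = 0.0947). Pparg, the nuclear receptor of fat-making cells, differed by -1.79 (adjusted p = 0.128) and the desaturase Scd by -1.04 (adjusted p = 0.64). Of 25 sterol and fatty acid synthesis genes 1 fell, again Elovl6, the same gene called in the sebaceous list. The median of that list was -0.40, and Fasn, the fatty acid synthase, differed by -2.47 (adjusted p = 0.132).

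The other genes that fell were of mixed function. Ly6g6e fell by 1.79 on the log2 scale, Tmem254 by 1.46, Usp46, a deubiquitinase, by 1.35, Cacnb3, a calcium channel subunit, by 1.27, Gtf2b, the transcription factor TFIIB, by 1.26 and Cep70, a centrosome protein, by 1.20. Cd9, a tetraspanin of the cell surface, fell by 0.94, and Trhde, an enzyme that cuts thyrotropin-releasing hormone, by at least 0.46.

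The epidermis and follicle lists named here had lower medians and 0 calls. The epidermal lipid barrier list had 0 called genes of 17 and a median of -0.60, with 7 lower and 1 higher at an unadjusted p below 0.05; Acer1, an alkaline ceramidase, differed by -2.98 (adjusted p = 0.0937). The medians were -0.41 for 11 basal keratinocyte genes, -0.41 for 21 genes of differentiated epidermis and -0.69 for 14 hair follicle stem cell genes. They were -1.96 for 13 inner root sheath genes, -0.58 for 14 hair shaft genes and -0.30 for 23 hair matrix genes. These last lists were also lower in the unirradiated rats, with medians of -2.01, -2.78 and -1.04, while the stem cell list was at 0.46 there. The hair shaft list differed in sign between the irradiated rats, at -0.14, -2.65 and 1.12. Lgr5, a follicle stem cell marker, differed by -2.54 (adjusted p = 0.275) and Krt15 by -0.78 (adjusted p = 0.751).

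Both days were taken after radiation had begun, and the damage response genes had no calls between them. Of 23 genes of p53 feedback and growth arrest 0 were called and the median was 0.25. Mdm2, the p53 target that restrains p53, lay between 12.62 and 13.40 on day -4 and between 12.74 and 13.93 on day 1, above its baseline range of 10.37 to 11.21, and the difference between the days was 0.42 (adjusted p = 0.579). Cdkn1a, the cell cycle inhibitor p21, averaged 14.31 on day -4, 15.06 on day 1 and 12.77 at baseline and differed between the days by 0.74 (adjusted p = 0.435). In 58 mitosis genes 0 were called, the median was 0.17 and the rats differed in sign, at 0.86, -0.73 and 0.35. Of 30 macrophage and monocyte genes 0 were called and the median was 0.71, with 1.57, 0.97 and -0.11 in the 3 rats. The alarmin gene S100a9, also used as a neutrophil marker, was at 9.26, 8.76 and 8.06 on day -4 and at 14.61, 9.41 and 7.07 on day 1. A single rat thus carried its difference of 1.67 (limma adjusted p = 0.673). Nqo1, a target of NRF2, differed by 1.65 (adjusted p = 0.081) and the collagen Col1a1 by -0.33 (adjusted p = 0.624).

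Baseline values place the 2 days, as a description. Rat 3 had no baseline array, so this placing is not within animals. Of the 90 features that rose, 82 had a day -4 mean below baseline and 85 a day 1 mean above it. Over all 23188 features these counts were 10017 and 12599. The called features were chosen for a difference between these 2 days, so a baseline between them follows in large part from the choice. For those that rose, the median was 0.69 for baseline minus day -4 and 0.69 for day 1 minus baseline. Sdha averaged 11.93 at baseline, between 10.86 on day -4 and 12.66 on day 1. Of the 42 features that fell, 4 had a day -4 mean below baseline and 4 a day 1 mean above it, with medians of -1.33 and -0.66. Elovl6 averaged 11.16 at baseline, 13.14 on day -4 and 9.34 on day 1, so the earlier day was above and the later day below. On days 3, 7 and 14 the features that rose stood at medians of 1.04, 1.07 and 0.51 above day -4, and those that fell at -1.39, -1.76 and -1.52. The sebaceous list mean averaged 11.16 at baseline, 11.99 on day -4, 9.94 on day 1 and 9.87, 10.26 and 9.86 on days 3, 7 and 14. Stfa3 went from 10.74 at baseline to 18.72 on day 14. The day -4 arrays enter every one of these later differences.

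**Figure D3:**
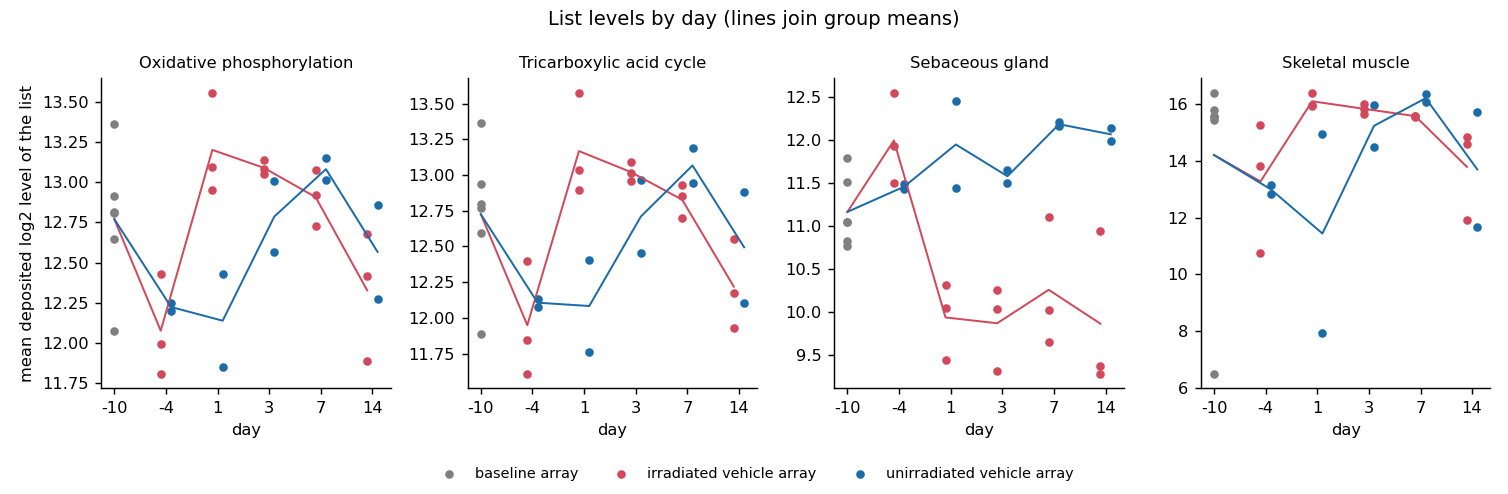
Mean log2 value of 4 gene lists (panels) by biopsy day in the irradiated and unirradiated vehicle arms and at baseline, points for single arrays and lines through the group means, with the days evenly spaced on the x axis. In irradiated vehicle skin the sebaceous list mean averages 11.99 on day -4 and 9.94 on day 1, and it is 9.86 on day 14.

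The same interval without radiation was measured in 2 rats. There 26 features were called (0.112%, 12 higher and 14 lower), and 1 of the 132 was among them, the feature without a symbol named above. The features that rose in irradiated vehicle skin had a median of 0.04 in the unirradiated rats, with the same sign in 49 of 90, and those that fell had a median of 0.38, with the same sign in 10 of 42. Over all features the sign was the same in 11610 of 23188. The skeletal muscle list mean was 13.15 and 12.84 on day -4 and 7.94 and 14.93 on day 1 in the unirradiated rats, and the oxidative phosphorylation mean 12.25 and 12.20 against 11.85 and 12.43. With the muscle list mean as a covariate the difference between the arms was again called for 1 feature.

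The difference between the irradiated and the unirradiated change was called for 1 feature, Mrpl54 (0.00431%), and 3181 had an unadjusted p below 0.05. Mrpl54, a protein of the mitochondrial ribosome, was at 10.51, 10.27 and 10.94 on day -4 and at 11.38, 11.70 and 11.80 on day 1 in irradiated vehicle skin, a rise of 1.05 ± 0.21 (adjusted p = 0.023), while its differences in the unirradiated rats were -1.42 and -0.72. The difference of the changes was 2.13 ± 0.33 (adjusted p = 0.0221), and it was not called when any of the 3 irradiated rats, or unirradiated rat 1, was left out, nor when only days -4 and 1 or only the arrays of these arms and days were fitted. For Cyc1 the difference of the changes was 2.24 ± 0.49 (adjusted p = 0.0766), for Adtrp -3.57 ± 0.72 (adjusted p = 0.0766), for Elovl6 -4.51 ± 1.13 (adjusted p = 0.0899) and for Mybph 3.94 ± 1.37 (adjusted p = 0.194), so the change of these 4 genes was not shown to differ between the arms. The sebaceous list medians were 1.66 and 0.17 in the unirradiated rats, against -2.94, -1.88 and -1.16 in the irradiated ones. In the mitosis list the arms stood apart in unadjusted p-values only: its median was -1.52 and -1.85 in the unirradiated rats, and 44 of 58 genes differed between the arms at an unadjusted p below 0.05, with a smallest adjusted p of 0.0899.

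**Figure D4:**
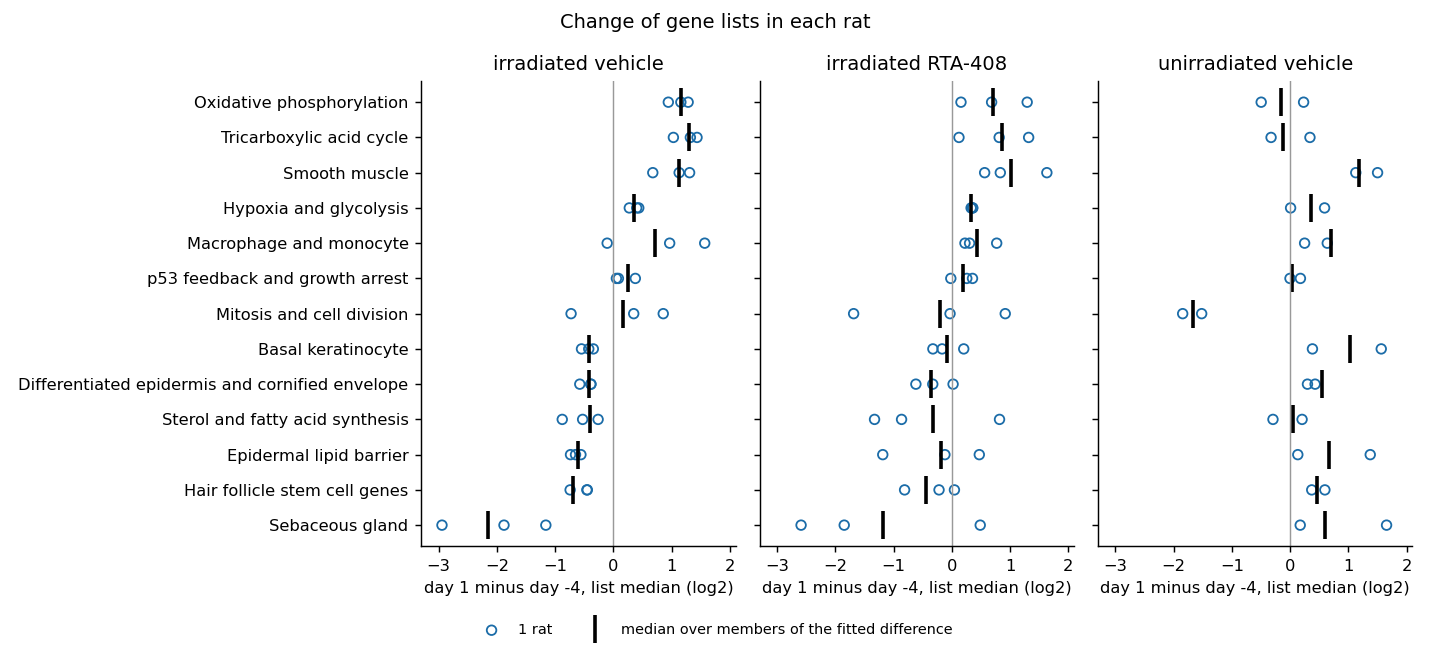
Median change from day -4 to day 1 (x axis, log2 scale) of 13 gene lists (rows), in a panel for each of the irradiated vehicle, irradiated RTA-408 and unirradiated vehicle arms, with a circle for each rat and a bar for the median of the fitted differences. The oxidative phosphorylation list lies between 0.94 and 1.28 in the irradiated vehicle rats and the sebaceous list between -2.94 and -1.16.

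In irradiated skin given RTA-408, 2 features were called over the interval (0.00863%): Klhl38, which also rose in the vehicle rats but lay near or below the negative controls on both days and is given no size, and the feature without a symbol. The features that rose in the vehicle rats had a median of 0.87 with RTA-408 and the same sign in 90 of 90, and those that fell a median of -0.98 and the same sign in 40 of 42, against 15018 of 23188 over all features. These arms are separate rats and share no arrays. The sebaceous list median was -1.85, 0.49 and -2.59 in the 3 RTA-408 rats, and the difference of Elovl6 -3.84, -0.75 and -4.35. In the same rats the oxidative phosphorylation list median was 1.29, 0.16 and 0.68 and the TCA list median 1.32, 0.12 and 0.81, with 0 calls in either list. The muscle list mean went from 6.57, 15.14 and 14.13 to 16.26, 15.44 and 15.62 with RTA-408. The difference between the changes of the irradiated arms was called for 0 features in limma (0%), with 622 at an unadjusted p below 0.05 and a smallest adjusted p of 0.154. A called change in one arm and not in the other therefore does not show that the arms differ.

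**Figure D5:**
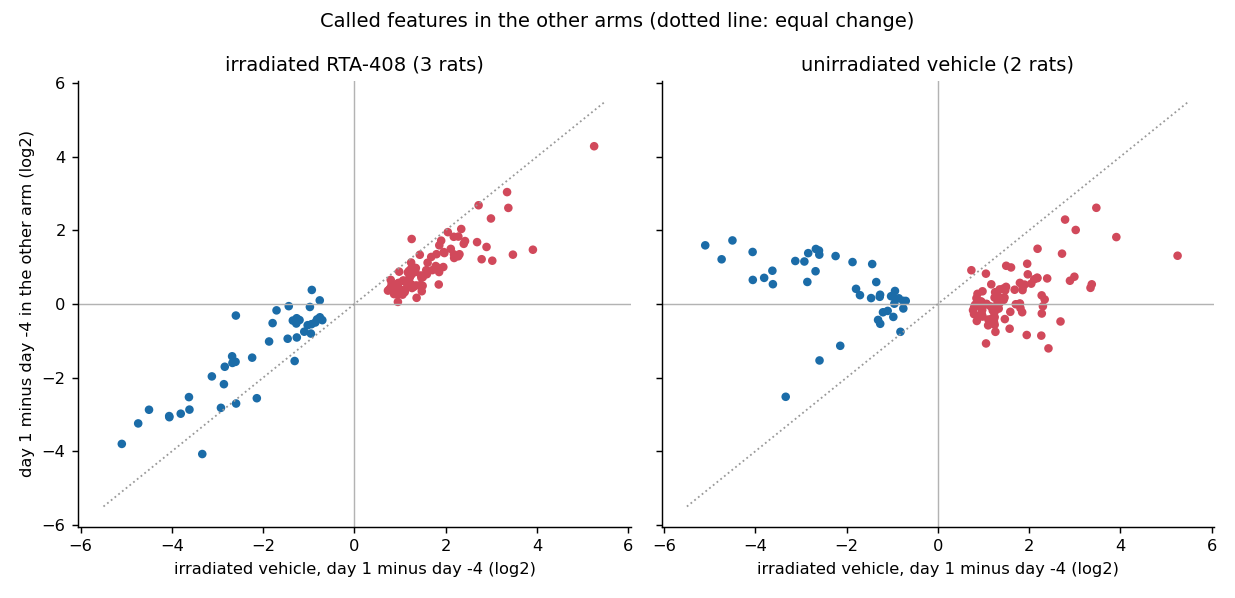
Change from day -4 to day 1 of the 132 called features in the unirradiated vehicle rats and in the irradiated RTA-408 rats (y axes, log2 scale) against the change in the irradiated vehicle rats (x axis, log2 scale). With RTA-408 90 of the 90 features that rose and 40 of the 42 that fell keep the sign, and in the unirradiated rats 49 and 10.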

How the data were processed

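RNA of 46 skin punches was measured on Clariom S rat arrays, from 100 ng of total RNA and 2.5 ug of labelled cDNA per array, per the labels' protocols. The deposited table holds log2 values, 1 column per array, and the authors' background correction and normalization are not given in the sources used here, so the values were used as deposited, with no further normalization. Control features were left out (1646 of 24834), and 15049 of the 23188 others carried 1 gene symbol. limma 3.58.1 in R 4.3.3 was fitted to all 46 arrays with 16 group means and the rat as a fixed block, with Benjamini-Hochberg adjustment of the p-values of each comparison across all 23188 features. There were 5 comparisons: the change from day -4 to day 1 in irradiated vehicle, unirradiated vehicle and irradiated RTA-408 skin, and the differences of the first from each of the others. The pairing is by animal, from the rat numbers in the titles. Deviations from the day means correlated at 0.01, 0.02 and 0.27 within rats 1, 2 and 3 and at 0.14 and 0.13 between rats 1 and 2. With the rat as a random block the consensus correlation was 0.0067. The values thus gave little sign of the pairing. A set of 2 identity-like features (Ptpa and a feature with no symbol) set rat 2 apart on both days. These features were not chosen by a stated rule, so they do not test the pairing. A gene at or below the array's median of 1153 negative control features on every array of a day has only a bound there, computed against that median. An unirradiated array is day 1 by its title and day 3 by its description, and the title was followed. Genes were named by rule: the 15 highest and 15 lowest called symbols that moved one way in all 3 rats, up to 5 called members of each of 55 gene lists (1146 of 1426 entries measured), or 2 where none was called, and a fixed panel. Some groups and some named genes were added after values were seen. These groups were TCA, respiratory complex, ATP synthase, mitochondrial ribosome, mitochondrial import, cytosolic ribosome, proteasome, elongase, Acsm and milk. The members and the lists were chosen with earlier results of these data known. Top2a, Mcm5, Krt6a and Krt16 of the panel were not measured. With 3 rats, the number of arrays limits the precision. The fit was tested on simulated data with known changes. Promoters are RefSeq's for GRCr8. Alternatives covered the block, the arrays in the fit, quantile normalization, a filter on dim features, array weights, the threshold and leaving out each rat.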

Additional observations from a re-analysis of the deposited data

Results flagged for a closer look

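The skeletal muscle list mean of baseline replicate 2 was 6.48, far from the other 5 baseline arrays at 15.44 to 16.39, by Dixon's test of a gap in a small group. That test marks about 1 in 20 groups by chance. The change of Mrpl54 from day -4 to day 1 was higher in irradiated than in unirradiated vehicle rats by 2.13, and this difference was tested and passed. In 13 of 66 gene lists and families the list median had one sign in every irradiated vehicle rat and the other in both unirradiated rats, and the difference of these lists between the arms was not tested. In 8 of them the irradiated rats were lower: the median difference of the changes was -3.14 for the sebaceous gland list, -3.01 for fatty acid elongases, -1.38 for basal keratinocytes, -1.12 for hair follicle stem cell genes, -1.02 for the epidermal lipid barrier, -0.77 for differentiated epidermis, -0.23 for immediate early genes and -0.22 for Wnt, BMP and TGF-beta feedback. In the other 5 they were higher: 1.13 for ATP synthase, 0.80 for mitochondrial import, 0.65 for the proteasome, 0.59 for the mitochondrial ribosome and 0.23 for DNA damage sensing and repair. The elongase, ATP synthase, import, proteasome and mitochondrial ribosome groups were put together after values were seen. Lists can share genes, as the sebaceous and elongase lists share Elovl6. How many such lists would arise by chance was not tested.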

How the results depend on the processing

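The comparison of day 1 with day -4 in irradiated vehicle skin had 132 calls with the rat as a replicate block and 175 with no replicate block, 111 of them shared, 182 with a random effect for the rat and 129 after quantile normalization. It had 16 calls with only days -4 and 1 in the fit, 6 of them among the 132. The oxidative phosphorylation, TCA and sebaceous lists then had 0 calls. With only the 6 arrays compared it had 690 calls, of which 90 were among the 132. It had 209 without the dimmest 0.25 of the features, 638 with array weights and 636 at an adjusted p below 0.1. Further settings were chosen after seeing the data. The comparison then had 73 calls with the muscle list mean as a covariate. It had 253 with only the 15 irradiated vehicle arrays, 86 of them among the 132. It had 237 with rat and labelling set as blocks and 1 in labelling set I with no replicate block. Leaving out each rat gave 1 to 26. The unirradiated change had 26 calls, 7 with no replicate block or a random block, 8 with only days -4 and 1, 0 with only its own arrays or only set I, 431 with array weights, 219 at an adjusted p below 0.1 and 7 to 95 on leaving out a rat. The difference between these changes had 1 call, Mrpl54, also with no replicate block, a random effect for the rat, quantile normalization, the dim features left out or the muscle covariate. It had 1 other call, lower, with only days -4 and 1, 2 others with only the arms and days compared, 376 with array weights, 141 at an adjusted p below 0.1, 5 with the labelling set as a block and 0 to 8 on leaving out a rat. The RTA-408 change had 2 calls, 0 with only days -4 and 1, only its own arrays or without the dimmest features, 6 with array weights, 1 in set I or with the labelling set as a block, 4 at an adjusted p below 0.1 and 2 to 6 on leaving out a rat. The difference between the irradiated arms had 0 calls in limma under every setting run. The planned fit within labelling set I could not be made for the irradiated vehicle change, which has 1 pair there, nor for the differences that use it.

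Of 96 named genes the direction held in every setting run except for Ckm (-0.33) and Myh4 (-1.38) with the muscle covariate and S100a9 without rat 1, where leaving out a rat gave -0.17 to 3.00. The median of the mitosis list was -0.21 without rat 1 and up to 0.66 without another rat. Without the replicate block 7 named calls were lost, with the muscle covariate 31, and with only days -4 and 1 in the fit 59. The cause of these changes was not tested. The depth of an array is its signal over background: 9036 features lay at or below the negative controls on all 6 arrays, and 6 called features did so on both days.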

Other observations

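The milk genes of the day -4 array of rat 1 were Csn1s1, Lalba, Csn3, Csn1s2a, Olah, Btn1a1, Csn2 and Wap, at 18.2, 14.0, 13.2, 12.0, 11.2, 10.7, 9.19 and 7.63, and all 8 lay below the negative controls on the other 5 arrays. Over the study a milk list mean above 8 was found on 6 of the 46 arrays: 2 baseline arrays, the day -4 array of RTA-408 rat 2, the day -4 and day 3 arrays of an unirradiated rat and the array of rat 1 on day -4.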
